A study of Mus musculus with 10 samples.

Results

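The transcriptome of the cortical midline was compared gene by gene between mouse embryos carrying a conditional deletion of Rcor2 and floxed controls, on embryonic day 14.5. Members were all genes of the deposited RNA table whose normalized counts averaged 10 or more over the 4 RNA libraries, which gave 14324 of 16338 genes, and 4 of the 10 samples of the series. The controls (2 libraries) carried floxed Rcor2 alleles (Rcor2f/f), and the conditional knockouts (cKO, 2 libraries) carried the same alleles with EMX1-iCRE, a recombinase transgene named for Emx1, a gene of dorsal telencephalic progenitors. Both genotypes were C57/Bl6, no group without floxed alleles and no group with Cre alone was analysed here, and nothing in the labels gives litters, pooling or the exons that were floxed. The other 6 samples were chromatin libraries of wild-type midline of the same age and strain, precipitated with an antibody to Rcor2 or with IgG, or left as input. In the text, values of each genotype are given for replicate 1 first and replicate 2 second, and are normalized read counts per gene unless a log2 scale is named.

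Rcor2 belongs to the CoREST scaffolds, which bind histone deacetylases and the demethylase Kdm1a (LSD1) and are recruited to genes by Rest and other zinc finger factors. The complex is known for keeping genes of mature neurons silent in non-neuronal cells and for acting in neural progenitors. The cortical midline holds dividing progenitors that line the ventricle, the young neurons they produce, and the glia through which callosal axons later cross.

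Rcor2 itself (chromosome 19, 7267394 to 7275225, build mm10) stood at 7901 and 7257 in controls against 6363 and 6840 in cKO libraries. The cKO values lay below the controls without passing the test (log2 -0.20, SE 0.057, limma adjusted p 0.0541). A count over the whole gene says little about the genotype, since the floxed exons are not known. Emx1 had 3166 and 3122 in controls against 3603 and 3612 in cKO libraries, and it rose slightly (log2 0.20, SE 0.044, limma adjusted p 0.0234); the labels do not say whether the Cre was inserted into that gene. A gene was said to rise or fall where it passed a limma adjusted p under 0.05, as 6.16% (rises) and 8.29% (falls) of all tested genes did. Within 500 kb of Rcor2, 28 other genes were tested, of which 2 rose, 1 fell and the median log2 change was -0.03. Around Emx1 (chromosome 6, 85187931 to 85204463) 9 other genes were tested, of which 2 rose, 1 fell and the median was 0.12. Sex-linked transcripts split the libraries by replicate number: Ddx3y, a Y-linked gene, had 2936 and 4.32 in controls against 3211 and 2.94 in cKO libraries, so the libraries of each genotype came from different embryos. The libraries held 27674987 to 30270598 recovered reads.

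Markers of the dissected tissue were present in every library, and markers of some neighbouring tissues differed between the libraries. Of 13 dorsal telencephalic identity genes, 3 rose and 6 fell. The progenitor factors Emx1, Emx2 and Pax6 rose, and the neuronal factors Neurod6, Neurod1, Bcl11b, Neurod2 and Tbr1 were among those that fell. Neurod6, a factor of young excitatory neurons, had 20246 and 20051 in controls against 13923 and 16383 in cKO libraries (log2 -0.42, SE 0.072, limma adjusted p 0.00992). Expressed as a list, the markers of ventral telencephalon gave 4 falls among 10 tested (median log2 -0.50, against -0.01 for all tested genes), led by Lhx6, a factor of migrating interneurons with 806 and 795 in controls against 375 and 464 in cKO libraries (log2 -0.94, SE 0.11, limma adjusted p 0.00429). Gad1 and Gad2, which make GABA, fell by 0.78 and 0.53 on the log2 scale. In bulk tissue such as this, fewer cells of a type and less RNA per cell cannot be told apart. Of 8 rostral and septal markers 2 rose, the zinc finger factors Zic1 (log2 0.30) and Zic2 (log2 0.24), and of 4 diencephalic markers 1 rose, Lhx9, a LIM factor with 2393 and 2092 in controls against 3476 and 3024 in cKO libraries (log2 0.53, SE 0.083, limma adjusted p 0.00771). Endothelial and mural markers did not pass in limma (0 of 12 and 0 of 6), with medians of -0.20 and -0.01. At an unadjusted p under 0.05 there were 4 and 3, and edgeR and DESeq2 called 0. Kdr, the endothelial receptor of vascular growth factor, had 1432 and 1495 in controls against 1494 and 1459 in cKO libraries. Rgs5 of pericytes had 1586 and 1576 in controls against 1241 and 1472 in cKO libraries. Of 12 microglial and macrophage markers 1 rose, the mannose receptor gene Mrc1 (log2 0.72), and of 5 oligodendrocyte precursor markers 1 rose, Pdgfra (log2 0.66). Astroglial markers gave 3 rises and 2 falls among 13, with Gja1, a gap junction protein of radial glia, at 2145 and 2244 in controls against 3914 and 3033 in cKO libraries (log2 0.65, SE 0.10, limma adjusted p 0.00792). Of the dorsal identity genes, 6 fell and 2 rose without cKO replicate 1, and 1 fell and 0 rose without control replicate 1 and likewise without control replicate 2. Of the ventral markers 5 fell without cKO replicate 1, 2 without control replicate 1 and 1 without control replicate 2. Mrc1 and Pdgfra did not pass without cKO replicate 1, and Pdgfra did not pass with edgeR. Mrc1 and Gad2 did not pass with DESeq2. Of the 10 ventral markers limma called 4, and edgeR and DESeq2 called 3 each.

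One cKO library stood apart in genes of the meninges, the fibroblast layers around the brain. The 10 tested meningeal fibroblast markers had a median log2 difference from the controls of 3.01 in cKO replicate 1 and of 0.34 in cKO replicate 2. Over the 12 markers of the table the summed level was 1271 to 1443 in the controls, 8894 in cKO replicate 1 and 1847 in cKO replicate 2. Col3a1, a fibrillar collagen, had 334 and 308 in controls against 2842 and 282 in cKO libraries. Slc6a13, a transporter of meningeal cells, had 2.93 and 3.24 in controls against 109 and 3.91 in cKO libraries. Both genes were high in cKO replicate 1 alone and did not pass the test. Col1a1 had 355 and 258 in controls against 2442 and 611 in cKO libraries and Dcn, a small proteoglycan, had 285 and 332 in controls against 694 and 411 in cKO libraries. These 2 were higher in both cKO libraries than in both controls and passed (log2 2.01, SE 0.51, limma adjusted p 0.0354 for Col1a1 and log2 0.80, SE 0.21, limma adjusted p 0.0419 for Dcn). Of the 10 meningeal markers limma called 2, edgeR 1 and DESeq2 0. Across the table, among genes with a mean of at least 20, 36 lay more than 2-fold above every other library in cKO replicate 1, 0 in cKO replicate 2 and 1 in each control. Of 8 tested erythroid markers 3 fell (median log2 -1.21 in cKO replicate 1 and -0.46 in cKO replicate 2), with a summed level of 1968 to 2786 in the controls and 1061 to 1662 in the cKO. Falls among them numbered 3, 7, 1 and 0 without cKO replicate 1, cKO replicate 2, control replicate 1 and control replicate 2. Alas2, which starts haem synthesis in red cells, had 665 and 863 in controls against 269 and 372 in cKO libraries (log2 -1.26, SE 0.17, limma adjusted p 0.00589). Of 7 tested choroid plexus markers 3 rose, against 0 with either control left out and 1 call with DESeq2. The summed level of the 12 in the table was 462 to 471 in the controls and 656 to 681 in the cKO. Otx2, a homeodomain factor of the plexus and dorsal midline, had 191 and 214 in controls against 297 and 297 in cKO libraries. The folate receptor gene Folr1 had 28.3 and 25.9 in controls against 58.6 and 58.7 in cKO libraries; the third rise was Car12 (log2 0.60). Ttr, the defining product of plexus epithelium, was near the floor with 19.5 and 14.1 in controls against 9.25 and 5.87 in cKO libraries. The part that meningeal, blood and plexus tissue had in the gene changes described here was not tested; counts of the main groups are therefore also given without cKO replicate 1. Dcn and Car12 did not pass without cKO replicate 1, and Dcn did not pass with edgeR. Col1a1, Dcn, Folr1 and Car12 did not pass with DESeq2.

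**Figure D1:**
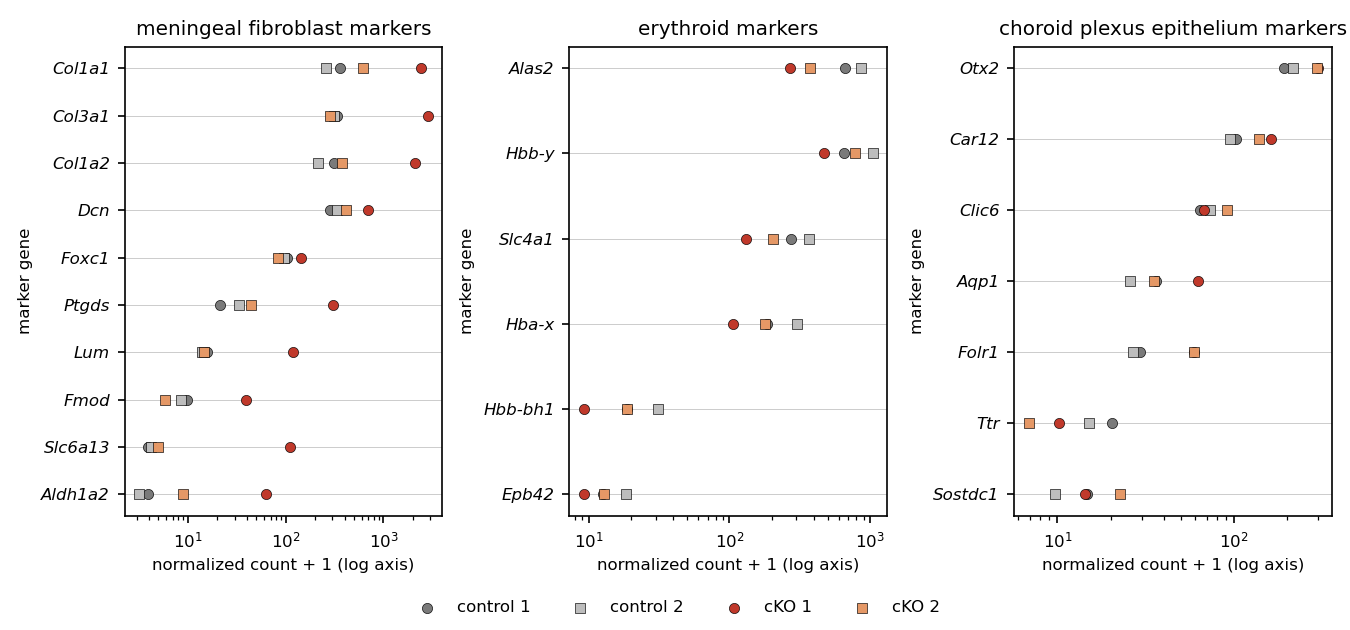
Normalized counts plus 1 (log axis) of marker genes of meningeal fibroblasts, erythroid cells and choroid plexus epithelium, with 1 point per library. Meningeal markers are highest in cKO replicate 1 (Col3a1 at 2842 against 282 to 334 in the other libraries), and the erythroid markers plotted are lowest there (Slc4a1 at 131 against 205 to 368).

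Over the whole transcriptome, 2070 genes (14.5%) differed between the genotypes at a limma adjusted p under 0.05. Of all tested genes, 882 (6.16%) were higher in the cKO and 1188 (8.29%) lower, and these shares are the background for each count below. Without cKO replicate 1, 548 genes (3.83%) were higher and 835 (5.83%) lower. Changes were mostly small: the median absolute log2 change was 0.35 among called genes, and 173 rises and 263 falls reached 1.5-fold. At 4-fold or more there were 7 rises and 0 falls. Each of the 2070 called genes had groups that did not overlap, and so did 61.0% of all tested genes. The count depended on the libraries kept. It was 1383, 3453, 172 and 140 when cKO replicate 1, cKO replicate 2, control replicate 1 or control replicate 2 was left out, and later counts with 1 library left out keep this order. In the full fit and in each of the leave-one-out fits, 92 genes passed, of which 33 were higher and 59 lower. Among the named genes 28 belonged to these, among them Lhx6, Ucp2, Actl6b, Lama5, Tacr3, Ryr3, Slc6a17, Igfbp3, Rps25, Zfp217, Mapk10, Adcy1, Id4, Adamts4, Crabp2, Dennd1c, Doc2b, Sypl2, Car14, Ntm, Pttg1, Ube2ql1, Crocc, Cdh8, Mapt and Rbfox1. Leaving out control replicate 1 took away 208 of the 254 named calls, and leaving out control replicate 2 took away 216.

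**Figure D2:**
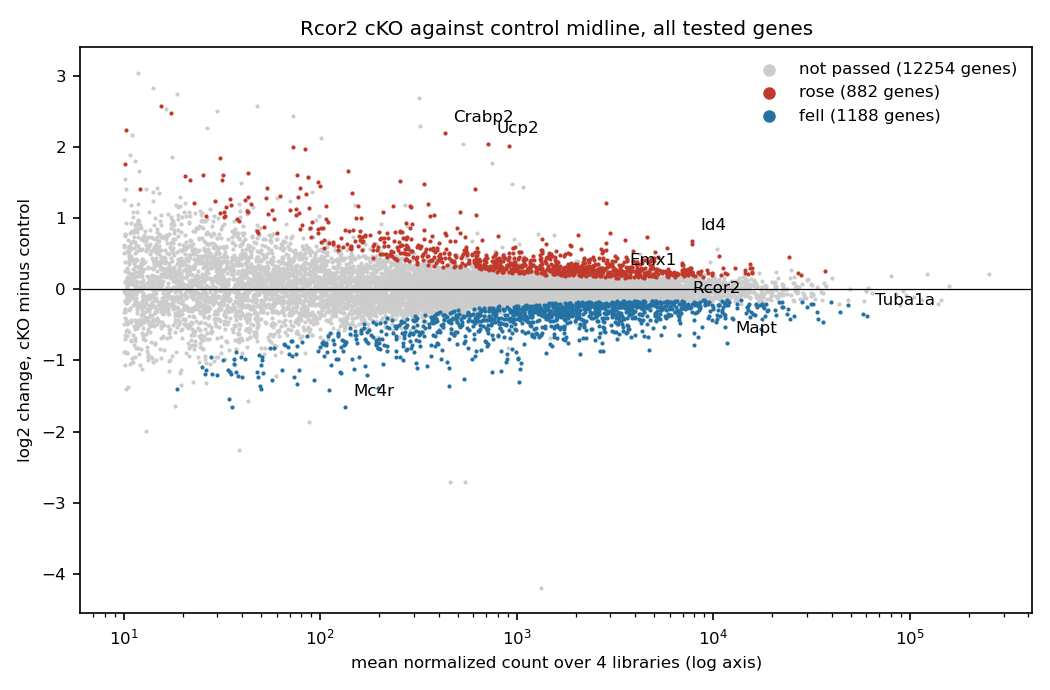
Log2 change of each of 14324 tested genes (cKO minus control) against its mean normalized count (log axis), with 882 rises in red and 1188 falls in blue. Falls outnumber rises among abundant genes, and the largest rises, such as Crabp2 and Ucp2, lie at middle and low counts.

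Among the 20 largest rises was Crabp2, a cellular carrier of retinoic acid, with 165 and 139 in controls against 837 and 584 in cKO libraries (log2 2.20, SE 0.17, limma adjusted p 0.00244). Ucp2, a carrier of the inner mitochondrial membrane, had 249.6 and 311 in controls against 1193 and 1114 in cKO libraries (log2 2.04, SE 0.11, limma adjusted p 0.000823). Both were several-fold higher in each cKO library than in either control. Slc5a7, the choline transporter of cholinergic neurons, had 36.1 and 20.5 in controls against 149 and 84.2 in cKO libraries. Robo3, a receptor of commissural axons, had 43.9 and 30.3 in controls against 137 and 92.98 in cKO libraries. Dennd1c, which has a DENN domain of Rab exchange factors, had 67.3 and 64.9 in controls against 221 and 201 in cKO libraries with a small spread in both groups (log2 1.66, SE 0.15, limma adjusted p 0.00270). Doc2b, a calcium sensor of vesicle release, had 147 and 116 in controls against 439 and 322 in cKO libraries (log2 1.52, SE 0.18, limma adjusted p 0.00429). Sypl2, a relative of synaptophysin, had 162 and 195 in controls against 529 and 463 in cKO libraries (log2 1.47, SE 0.13, limma adjusted p 0.00270). Car14, a membrane carbonic anhydrase, was higher in both cKO libraries, with 323 and 342 in controls against 988 and 789.8 in cKO libraries (log2 1.41, SE 0.11, limma adjusted p 0.00244). Dmrt1, a factor of testis development whose relatives pattern the medial cortex, had 40.96 and 60.5 in controls against 160.4 and 127 in cKO libraries. Syne3 encodes a nuclear envelope protein, with 39.01 and 45.4 in controls against 161 and 101 in cKO libraries. Secreted and matrix proteins were represented by Islr (81.9 and 75.7 in controls against 273 and 152 in cKO libraries), Wfdc2 (38.03 and 59.5 in controls against 129.6 and 114 in cKO libraries), Emilin2 (44.9 and 43.2 in controls against 121 and 98.8 in cKO libraries), Tnfaip6, which binds hyaluronan (37.1 and 21.6 in controls against 85.4 and 70.5 in cKO libraries), and Crispld1 (24.4 and 35.7 in controls against 94.6 and 56.8 in cKO libraries). The remaining 4 were Fndc3c1 (29.3 and 35.7 in controls against 171 and 98.8 in cKO libraries), Capn6, a calpain without protease activity (48.8 and 54.1 in controls against 191 and 106 in cKO libraries), the Ets factor Elf4 (43.9 and 40.00 in controls against 141 and 92.00 in cKO libraries) and the adaptor Skap1 (30.2 and 41.1 in controls against 99.7 and 79.3 in cKO libraries), with the meningeal marker Col1a1 as given above. The 20 largest rises were larger in cKO replicate 1 than in cKO replicate 2 in 20 of 20 genes (medians 1.74 and 1.27 on the log2 scale), and 19 also passed without cKO replicate 1. With either control left out, 9 passed. Crispld1 did not pass without cKO replicate 1.

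Among the 20 largest falls was Mc4r, a melanocortin receptor, with 206 and 199 in controls against 48.3 and 84.2 in cKO libraries (log2 -1.65, SE 0.24, limma adjusted p 0.00711). Ntm, an IgLON adhesion molecule, had 279 and 286 in controls against 93.6 and 124 in cKO libraries (log2 -1.38, SE 0.16, limma adjusted p 0.00429). Ryr3, a calcium release channel of internal stores, had 1019 and 1048 in controls against 395 and 540.2 in cKO libraries (log2 -1.16, SE 0.13, limma adjusted p 0.00429). In these 3 genes both cKO libraries lay well below both controls. Pttg1, the securin that holds back the separation of sister chromatids until anaphase, had 622 and 672 in controls against 252 and 253 in cKO libraries, nearly the same value in both cKO libraries (log2 -1.36, SE 0.090, limma adjusted p 0.00213). Ube2ql1, a relative of ubiquitin-conjugating enzymes, had 1517 and 1383 in controls against 479 and 723 in cKO libraries (log2 -1.30, SE 0.16, limma adjusted p 0.00529). Dync1i1, a dynein intermediate chain of neurons, had 1458 and 1356 in controls against 519 and 804 in cKO libraries (log2 -1.12, SE 0.17, limma adjusted p 0.00736). C1ql3, a secreted organizer of synapses, had 125 and 137 in controls against 45.2 and 63.6 in cKO libraries. Among transcription factors, Pou3f1 had 179 and 175 in controls against 69.9 and 86.1 in cKO libraries, Npas1 had 81.9 and 76.8 in controls against 23.7 and 44.04 in cKO libraries and Dmrt2 had 82.9 and 62.7 in controls against 20.6 and 34.3 in cKO libraries. Slc6a11, a GABA transporter, had 115 and 92.97 in controls against 45.2 and 42.1 in cKO libraries. Adhesion genes were represented by Cntnap3 (78.99 and 97.3 in controls against 42.2 and 37.2 in cKO libraries) and by Pcdha5 (68.3 and 74.6 in controls against 25.7 and 37.2 in cKO libraries) and Pcdha11 (99.5 and 117 in controls against 50.4 and 46.98 in cKO libraries), 2 clustered protocadherins that share exons with the rest of their cluster, so that counts can be split between them. Col19a1, a collagen, had 104 and 111 in controls against 30.8 and 57.7 in cKO libraries. The others were Pxdc1 (149 and 174 in controls against 64.8 and 54.8 in cKO libraries), Jakmip3 (174 and 175 in controls against 66.8 and 90.04 in cKO libraries), the Src-like adaptor Sla (1124 and 1144 in controls against 378 and 696 in cKO libraries) and the diacylglycerol kinase gene Dgkg (192 and 215 in controls against 80.2 and 108 in cKO libraries), with Alas2 as given above. Of the 20 falls, 16 were larger in cKO replicate 1 (medians -1.44 and -1.03), 20 also passed without cKO replicate 1, 6 without control replicate 1 and 4 without control replicate 2. Pcdha5 and Sla did not pass with DESeq2.

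**Figure D3:**
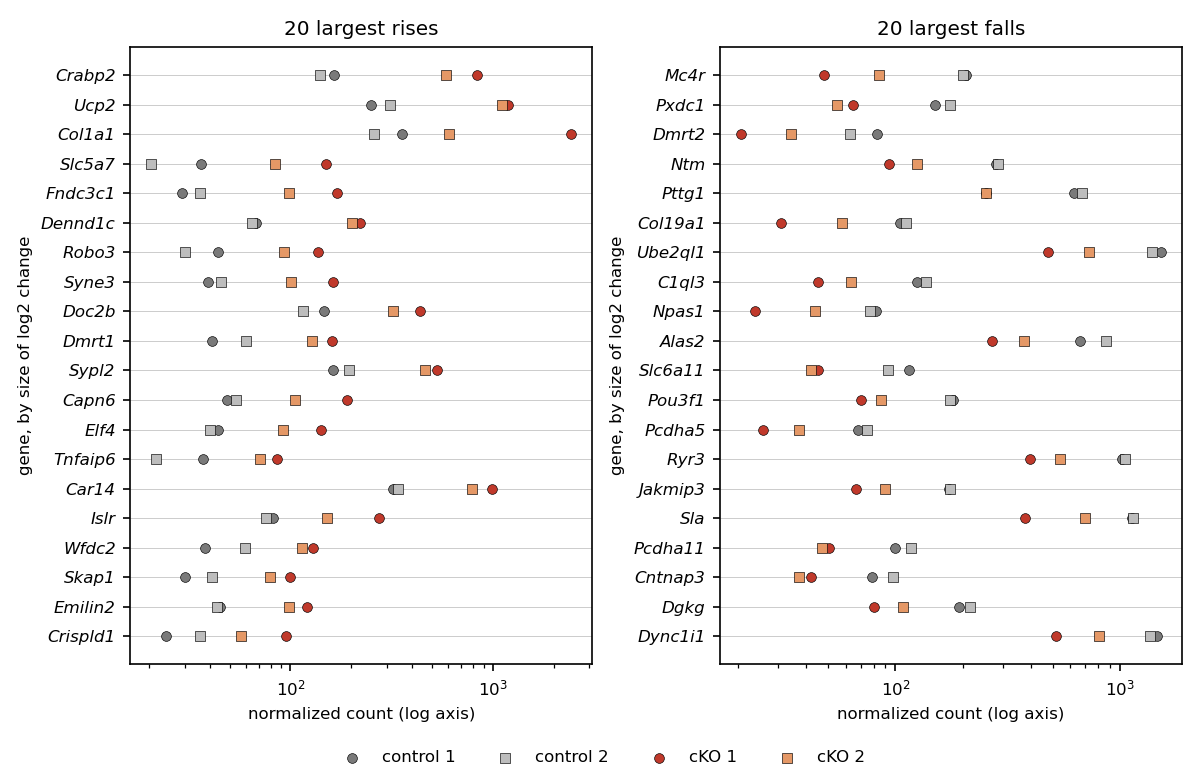
Normalized counts (log axis) of the 20 genes that rose most and the 20 that fell most (called, mean of 50 or more), with 1 point per library. Groups do not overlap for any gene shown, which holds for all 2070 called genes and for 61.0% of all tested genes. Col1a1 has the widest gap between the cKO libraries (2442 and 611), and Pttg1 has almost none (252 and 253).

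Several genes with the smallest adjusted p had moderate changes and a small spread. Id4, which blocks helix-loop-helix partners in neural progenitors, had 5994 and 6044 in controls against 10076 and 9245 in cKO libraries (log2 0.68, SE 0.052, limma adjusted p 0.00244). Crocc, which forms the rootlet of cilia, had 1576 and 1476 in controls against 2677 and 2497 in cKO libraries (log2 0.76, SE 0.060, limma adjusted p 0.00244). Cdh8, a cadherin of cortical neurons, had 1430 and 1401 in controls against 642 and 748 in cKO libraries (log2 -1.03, SE 0.081, limma adjusted p 0.00244). Rbfox1, which regulates splicing in neurons, had 1835 and 1882 in controls against 1038 and 1149 in cKO libraries (log2 -0.77, SE 0.065, limma adjusted p 0.00270). The most abundant called genes were mainly cytoskeletal genes of young neurons. Tuba1a, the main alpha tubulin of developing neurons, had 66652 and 69208 in controls against 48824 and 56327 in cKO libraries. Dpysl3, a collapsin response mediator of growth cones, had 64722 and 63983 in controls against 48687 and 53013 in cKO libraries. Map2, Dpysl2, Tubb3, Dcx, Cntn2, Sptan1 and Zbtb18 also fell, by 0.18 to 0.47 on the log2 scale. Ccnd2, a cyclin of cortical progenitors, was the 1 rise among these 10, with 33444 and 33849 in controls against 43439 and 37428 in cKO libraries (log2 0.26, SE 0.070, limma adjusted p 0.0430). Sptan1, Dpysl2, Zbtb18 and Ccnd2 did not pass without cKO replicate 1, nor with edgeR.

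Motor and adaptor genes of axonal transport held falls and no rises. Of 28 tested motor and adaptor genes 12 fell (42.9%) and 0 rose, the other 16 missing the threshold, with a median log2 change of -0.16 against -0.01 for all tested genes. The falls numbered 8, 15, 0 and 1 with 1 library left out. Kif5a, a kinesin heavy chain of neurons, had 7990 and 7761 in controls against 5375 and 6007 in cKO libraries (log2 -0.47, SE 0.058, limma adjusted p 0.00515). Kif3c had 8703 and 8551 in controls against 6544 and 7271 in cKO libraries (log2 -0.32, SE 0.056, limma adjusted p 0.0101). The adaptor Mapk8ip2 had 4095 and 4003 in controls against 3443 and 3388 in cKO libraries. Kinesins as a family went both ways: of 36 tested, 10 rose and 5 fell. Those that fell were the transport motors Kif5a, Kif3c, Kif3a, Kif21b and Kif5c. Those that rose, among them Kif2c (log2 0.35), Kif20b (log2 0.31) and Kif4 (log2 0.29), are known from the mitotic spindle and cell division. Rises numbered 8, 13, 0 and 0 with 1 library left out, and falls numbered 3, 7, 0 and 1 with 1 library left out. Tubulins divided in a similar manner, with 2 rises and 4 falls among 13: Tuba1c, which dividing cells express, had 597 and 571 in controls against 846 and 792 in cKO libraries. Tubb2a had 5077 and 4928 in controls against 3480 and 3979 in cKO libraries and Tubb3, the neuronal beta tubulin, had 42795 and 41287 in controls against 28160 and 32880 in cKO libraries. Tubulins gave 2 rises and 4 falls without cKO replicate 1, and 0 of either with a control left out. Tubulin genes are close relatives, so reads may have been split between them. Of 62 Rab GTPases, which direct vesicle traffic, 7 fell and 0 rose (median -0.09), and falls numbered 4, 12, 0 and 0 with 1 library left out. The synaptic vesicle genes Rab3c (4878 and 4874 in controls against 2815 and 3487 in cKO libraries) and Rab3a (3223 and 3228 in controls against 2070 and 2429 in cKO libraries) had the smallest adjusted p among them (log2 -0.64, SE 0.088, limma adjusted p 0.00629 for Rab3c and log2 -0.52, SE 0.073, limma adjusted p 0.00640 for Rab3a).

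Calcium handling and ion balance genes of neurons fell more often than the background share. Of 33 calcium signalling genes 14 fell (42.4%) and 1 rose (median -0.20), and the falls numbered 11, 16, 1 and 1 with 1 library left out. Besides Ryr3, the calcium pump Atp2b1 had 5114 and 5339 in controls against 4147 and 4389 in cKO libraries (log2 -0.29, SE 0.049, limma adjusted p 0.00951). The kinase gene Camk4 had 1055 and 1277 in controls against 510.1 and 744 in cKO libraries (log2 -0.91, SE 0.16, limma adjusted p 0.0110). Camk4 spread widely within each group, and its groups did not overlap, as held for each called gene. Camkv, a kinase-like protein of vesicles, had 1396 and 1281 in controls against 981 and 1061 in cKO libraries. Of 26 genes of membrane pumps and ion balance 10 fell (38.5%) and 1 rose (median -0.19), and the falls numbered 6, 10, 2 and 1 with 1 library left out. The sodium-calcium exchanger gene Slc8a1 had 6522 and 6738 in controls against 3819 and 4680 in cKO libraries (log2 -0.65, SE 0.085, limma adjusted p 0.00566). The proton pump subunit gene Atp6v1b2 had 4901 and 4847 in controls against 4055 and 4159 in cKO libraries. Slc12a7, a potassium chloride cotransporter, was the rise, with 1833 and 1718 in controls against 2344 and 2182 in cKO libraries (log2 0.35, SE 0.060, limma adjusted p 0.00963). Of the pump and ion balance genes edgeR called 9 and DESeq2 7, against 11 in limma.

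Transporters, peptides and receptors changed in smaller shares. Of 20 neurotransmitter transporters 4 fell and 2 rose: Slc6a17, a vesicular amino acid transporter of neurons, had 3104 and 3082 in controls against 2057 and 2282 in cKO libraries (log2 -0.51, SE 0.059, limma adjusted p 0.00429). The glutamate transporter gene Slc1a1 had 1479 and 1428 in controls against 903 and 1078 in cKO libraries (log2 -0.56, SE 0.085, limma adjusted p 0.00749). Among 258 solute carriers of any kind, 19 fell (7.36%) and 7 rose (2.71%), near and below the background shares; DESeq2 made 17 calls, against 26 in limma. Slc7a14 had 254 and 252 in controls against 131 and 154 in cKO libraries. Of 25 neuropeptide and peptide receptor genes 4 fell and 2 rose. Tacr3, the neurokinin B receptor, was higher in both cKO libraries, with 144 and 143 in controls against 340.4 and 311 in cKO libraries (log2 1.18, SE 0.12, limma adjusted p 0.00387). Tac2, which encodes its ligand, had 178 and 147 in controls against 70.95 and 93.96 in cKO libraries (log2 -0.98, SE 0.19, limma adjusted p 0.0141). The ligand and its receptor thus lay on opposite sides of the controls. Nxph1, a ligand of neurexins that interneurons express, had 230.1 and 254 in controls against 132 and 149.7 in cKO libraries. Monoamine and muscarinic receptors gave 3 falls among 15 tested, all at low counts: the serotonin receptor genes Htr2c (39.98 and 38.9 in controls against 14.4 and 19.6 in cKO libraries) and Htr5a (36.1 and 37.8 in controls against 18.5 and 18.6 in cKO libraries), and the adrenergic receptor gene Adra2a (84.8 and 65.9 in controls against 42.2 and 41.1 in cKO libraries). None of the monoamine receptors passed without cKO replicate 1 or with either control left out, and edgeR called 2 and DESeq2 0. Of 33 neurotrophic and growth factor genes 6 fell and 4 rose. Igfbp3, which binds insulin-like growth factors, had 916 and 886 in controls against 502 and 556 in cKO libraries (log2 -0.77, SE 0.079, limma adjusted p 0.00387). Its relative Igfbp2 had 4655 and 4638 in controls against 5413 and 5211 in cKO libraries (log2 0.19, SE 0.044, limma adjusted p 0.0256). Ntrk2, the receptor of brain-derived neurotrophic factor, fell by 0.30 on the log2 scale and Gfra4 by 0.70. Cntfr, the receptor of ciliary neurotrophic factor, had 989.8 and 1025 in controls against 1442 and 1232 in cKO libraries. Of this group 4 fell and 2 rose without cKO replicate 1, 6 fell and 12 rose without cKO replicate 2, and 1 fell and 0 rose without control replicate 1 and likewise without control replicate 2. Htr2c, Htr5a, Adra2a and Igfbp2 did not pass without cKO replicate 1, and Htr5a did not pass with edgeR. Adra2a did not pass with DESeq2. DESeq2 gave no adjusted p for Htr2c and Htr5a.

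Intracellular signalling families changed in a few members each. Adcy1, a calcium-stimulated adenylate cyclase of neurons, had 4144 and 3863 in controls against 2807 and 2907 in cKO libraries (log2 -0.49, SE 0.052, limma adjusted p 0.00429), and 2 of 9 cyclases fell, with Adcy9 at 507 and 462 in controls against 348 and 334 in cKO libraries. Of 18 phosphodiesterases 2 fell and 1 rose: Pde4d had 2036 and 1936 in controls against 1284 and 1458 in cKO libraries (log2 -0.54, SE 0.071, limma adjusted p 0.00568), Pde10a fell by 0.25 on the log2 scale, and Pde5a, which breaks down cyclic GMP, had 2526 and 2534 in controls against 3386 and 3128 in cKO libraries (log2 0.36, SE 0.053, limma adjusted p 0.00702). Of 41 mitogen-activated kinase genes 4 fell and 1 rose. Mapk10, the neuronal Jun kinase, had 1511 and 1462 in controls against 887 and 1007 in cKO libraries (log2 -0.65, SE 0.073, limma adjusted p 0.00429), Mapk8 had 7570 and 7348 in controls against 6127 and 6329 in cKO libraries, and Map3k13 fell by 0.39 on the log2 scale, while Map3k20 rose by 0.35. Of 16 regulators of G protein signalling 3 fell, Rgs4 (1097 and 1026 in controls against 463 and 723 in cKO libraries), Rgs6 (361 and 337 in controls against 144 and 211 in cKO libraries) and Rgs7 (129.7 and 159 in controls against 79.2 and 96.9 in cKO libraries). DESeq2 called 1 of the 3, and in the authors' deposited table Rgs4 (adjusted p 0.0648) and Rgs7 (adjusted p 0.106) did not pass. Of 19 receptor tyrosine phosphatases 4 fell, among them Ptpro (1857 and 1789 in controls against 1381 and 1439 in cKO libraries), Ptprn2 (864 and 787 in controls against 531 and 598 in cKO libraries) and Ptprt (1152 and 1262 in controls against 571 and 794 in cKO libraries). Ubiquitin-linked families lay near the background share of falls: of 39 tripartite motif genes 4 fell and 1 rose, with the neuronal ligases Trim9 (844 and 849 in controls against 553 and 588 in cKO libraries) and Trim67 (2330 and 2531 in controls against 1865 and 1760 in cKO libraries) among the falls, and of 47 ubiquitin-specific proteases 4 fell and 1 rose. Of the tripartite motif genes edgeR and DESeq2 called 3 each. Usp29, an imprinted gene, had 2114 and 2099 in controls against 1421 and 1611 in cKO libraries. Usp44 had 39.01 and 49.7 in controls against 106 and 87.1 in cKO libraries. In each of these families at most 1 member passed without control replicate 1 and at most 1 without control replicate 2. Rgs7 did not pass without cKO replicate 1. Rgs4 and Rgs7 did not pass with DESeq2.

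Hes, Hey and Id genes, most of them known as targets of Notch and Bmp signals that hold back neuronal differentiation, were higher in the cKO. Of 10 tested, 7 rose (70.0%) and 1 fell, with a median log2 change of 0.25. The rises numbered 6, 6, 1 and 1 with 1 library left out. After Id4, the smallest adjusted p were those of Hey2 (533 and 519 in controls against 729 and 734 in cKO libraries, log2 0.47, SE 0.073, limma adjusted p 0.00749), Hey1 (2111 and 2032 in controls against 2656 and 2537 in cKO libraries, log2 0.33, SE 0.052, limma adjusted p 0.00810) and Hes5 (1800 and 1890 in controls against 2296 and 2275 in cKO libraries, log2 0.31, SE 0.052, limma adjusted p 0.00907). Hes6, which is known to favour neuronal differentiation, was also among the rises, with Hes1 and Id3, and the member that fell was Id2. Of 27 genes of Tgf-beta and activin signalling 5 rose and 2 fell: Fstl1, a secreted follistatin relative, had 4249 and 4190 in controls against 6015 and 5479 in cKO libraries (log2 0.44, SE 0.054, limma adjusted p 0.00494), Ltbp4 had 1034 and 987 in controls against 1892 and 1437 in cKO libraries and the signal transducer Smad3 had 1507 and 1578 in controls against 2382 and 1972 in cKO libraries (log2 0.49, SE 0.085, limma adjusted p 0.0100). Of 23 Hippo pathway genes 5 rose and 0 fell. The DNA-binding partners Tead2 (6295 and 6161 in controls against 8186 and 7562 in cKO libraries) and Tead3 (257 and 236 in controls against 376 and 369 in cKO libraries) and the coactivator Yap1 (3467 and 3592 in controls against 4877 and 4183 in cKO libraries) were among them, as was the giant cadherin Fat1, a member whose reads spread widely between the controls (12916 and 14686 in controls against 18007 and 15938 in cKO libraries). The Hippo rises numbered 3, 8, 0 and 0 with 1 library left out, and those of the Tgf-beta group 3, 8, 1 and 0 with 1 library left out. Fat1 did not pass without cKO replicate 1, nor with edgeR.

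Genes that dividing cells use to copy and repair DNA were higher by small amounts. Of 39 genes of DNA repair and replication stress 10 rose (25.6%) and 0 fell, 36 had a log2 change above 0, and the median was 0.15 (log2). Chek1, the replication checkpoint kinase, had 1043 and 1057 in controls against 1427 and 1363 in cKO libraries (log2 0.41, SE 0.059, limma adjusted p 0.00670), Exo1 had 1128 and 1157 in controls against 1574 and 1431 in cKO libraries (log2 0.39, SE 0.065, limma adjusted p 0.00895), and the recombination genes Brca2 (2045 and 2055 in controls against 2641 and 2493 in cKO libraries) and Brca1 (2560 and 2562 in controls against 3349 and 3015 in cKO libraries) had similar increases. The rises numbered 6, 14, 0 and 0 with 1 library left out. In one-carbon and serine synthesis, which supplies nucleotides, 4 of 17 genes rose and 1 fell. Phgdh, the entry enzyme of serine synthesis, had 1655 and 1656 in controls against 2108 and 1972 in cKO libraries. Tyms, which makes thymidylate, had 1483 and 1433 in controls against 1854 and 1736 in cKO libraries. Cytosolic Shmt1 had 829 and 791 in controls against 1011 and 1026 in cKO libraries. The fall was mitochondrial Aldh1l2, with 1560 and 1494 in controls against 1166 and 1217 in cKO libraries (log2 -0.36, SE 0.058, limma adjusted p 0.00865). The group gave 4 rises and 1 fall without cKO replicate 1, and 0 of either with a control left out. Of 31 nuclear pore and import genes 3 rose and 0 fell (9.68% and 0%, median 0.10), Nup210, Nup188 and Rcc1, with Nup210 at 3933 and 3984 in controls against 5090 and 4565 in cKO libraries; without cKO replicate 1 there was 1 rise. Nup188 and Rcc1 did not pass without cKO replicate 1, and Rcc1 did not pass with edgeR.

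Epithelial contacts and matrix of the ventricular and pial surfaces changed more often upward. Of 25 junction proteins 7 rose (28.0%) and 2 fell: besides Gja1, the adhesion molecules Jam3 (2097 and 2235 in controls against 2763 and 2688 in cKO libraries) and Jam2 (1375 and 1360 in controls against 1930 and 1692 in cKO libraries) were higher in both cKO libraries. Cldn3, a claudin, had 188 and 188 in controls against 117 and 114 in cKO libraries (log2 -0.70, SE 0.13, limma adjusted p 0.0130). Of 31 laminins, integrins and basement membrane genes 7 rose (22.6%) and 1 fell. Lama5 had 1094 and 1123 in controls against 1852 and 1591 in cKO libraries (log2 0.63, SE 0.077, limma adjusted p 0.00494). Itga6, a laminin receptor subunit of radial glia, had 3003 and 3331 in controls against 4899 and 4338 in cKO libraries (log2 0.54, SE 0.072, limma adjusted p 0.00568). The perlecan gene Hspg2 had 3282 and 3638 in controls against 6445 and 5134 in cKO libraries (log2 0.74, SE 0.099, limma adjusted p 0.00596). Lamb2 rose by 0.38 on the log2 scale. Rises numbered 6, 12, 1 and 3 with 1 library left out for the basement membrane group and 4, 13, 0 and 0 with 1 library left out for junctions. Of 26 proteoglycan and hyaluronan genes 6 rose and 5 fell: the neural matrix genes Tnr (634 and 622 in controls against 337 and 401 in cKO libraries) and Ptprz1 (13570 and 14815 in controls against 10211 and 11186 in cKO libraries) and the syndecan gene Sdc3 (4648 and 4447 in controls against 3276 and 3701 in cKO libraries) fell, and the hyaluronan synthase gene Has2 (316 and 317 in controls against 482 and 448 in cKO libraries) rose. Matrix proteases of the ADAM and ADAMTS family gave 5 rises and 2 falls among 34, with Adamts4, an aggrecanase, at 359 and 346 in controls against 673 and 616 in cKO libraries (log2 0.87, SE 0.087, limma adjusted p 0.00387), Adamts9 at 630.0 and 654 in controls against 973 and 863 in cKO libraries and Adamts3 at 1892 and 2047 in controls against 1058 and 1409 in cKO libraries. Of this family edgeR called 4 and DESeq2 9, against 7 in limma. Meningeal fibroblasts also make laminin, perlecan and proteoglycans. cKO replicate 1, in which their markers were high, had the higher value of the 2 cKO libraries in Lama5, Itga6, Hspg2, Has2 and Adamts4. The same held for each of the 20 largest rises, and the part of meningeal tissue in these groups was not tested.

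**Figure D4:**
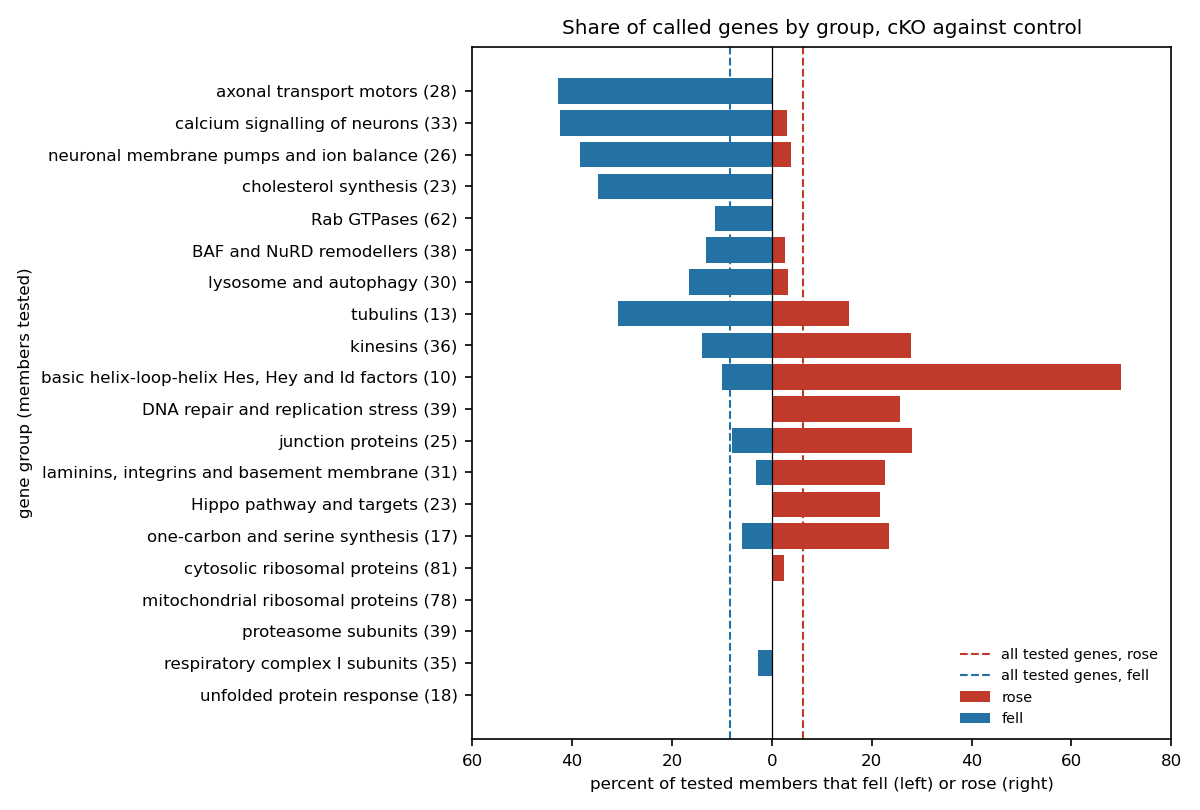
Percent of tested members that fell (left, blue) or rose (right, red) in 20 gene groups, with the number tested in parentheses and the shares of all tested genes as dashed lines (8.29% fell, 6.16% rose). Neuronal transport, calcium, pump and cholesterol groups extend to the left, Hes, Hey and Id factors to the right, and ribosomal, proteasome and unfolded protein groups lie at or under 2.47%.

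Beyond the Hes, Hey and Id genes, homeobox factors changed more often than the background, and the other families of transcription factors changed in few members. Of 16 LIM, Pou, Nkx and sine oculis homeobox factors 4 fell and 2 rose: Pou3f2, of upper-layer neurons, had 2593 and 2639 in controls against 1686 and 1927 in cKO libraries (log2 -0.54, SE 0.068, limma adjusted p 0.00539) and Pou6f1 had 4483 and 4379 in controls against 3510 and 3666 in cKO libraries. Of 22 forkhead factors 2 rose and 1 fell: Foxj1, which controls motile cilia, had 541 and 499 in controls against 727 and 659 in cKO libraries, Foxm1 of dividing cells had 1769 and 1692 in controls against 2465 and 1996 in cKO libraries and Foxp1 had 2202 and 2164 in controls against 1813 and 1850 in cKO libraries. Of 22 Kruppel-like and Sp factors 2 rose and 1 fell, with Sp8, a patterning factor, at 499 and 509 in controls against 816 and 701 in cKO libraries (log2 0.58, SE 0.091, limma adjusted p 0.00778). Of 355 Zfp-named genes 12 rose (3.38%) and 14 fell (3.94%), below the background share in each direction. Zfp217, a partner of CoREST complexes, had 1303 and 1293 in controls against 1923 and 1832 in cKO libraries (log2 0.53, SE 0.055, limma adjusted p 0.00387), and Zfp516, Zfp36l1 and Zfp536 rose by 0.46, 0.45 and 0.32 on the log2 scale. Leaving out control replicate 1 or control replicate 2 left 1 Zfp rise in each case. The homeobox factors gave 1 rise and 2 falls without the first control and 0 rises and 1 fall without the second, and the forkhead and Kruppel-like families gave 0 calls with either left out. For the Zfp genes edgeR made 19 calls and DESeq2 14, against 26 in limma. Foxm1 did not pass without cKO replicate 1, nor with edgeR.

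Chromatin regulators changed in few members, and those that fell were mostly of neuronal forms. Of 38 BAF and NuRD remodelling genes 5 fell (13.2%) and 1 rose. Actl6b, the subunit that replaces its progenitor counterpart when neurons leave the cell cycle, had 1541 and 1544 in controls against 941 and 1051 in cKO libraries (log2 -0.63, SE 0.068, limma adjusted p 0.00429). Ss18l1 and Dpf1, 2 further subunits of the neuronal form, had 3926 and 3873 in controls against 2854 and 3136 in cKO libraries and 2326 and 2240 in controls against 1672 and 1944 in cKO libraries. The ATPase gene Smarca2 had 5506 and 5247 in controls against 3591 and 4074 in cKO libraries (log2 -0.49, SE 0.064, limma adjusted p 0.00568). The falls numbered 5, 6, 1 and 2 with 1 library left out. Of 33 polycomb genes 2 rose, Cbx2 (2093 and 2091 in controls against 2621 and 2594 in cKO libraries) and Suz12 (5027 and 5575 in controls against 6877 and 6048 in cKO libraries), and 0 fell. Of 16 DNA methylation genes 2 rose, Uhrf1, which brings the maintenance methyltransferase to replicating DNA (4039 and 4158 in controls against 5635 and 5188 in cKO libraries), and Dnmt3a (6385 and 7213 in controls against 8789 and 7980 in cKO libraries), and 0 fell. Among 20 genes of heterochromatin and KRAB co-repression 2 rose, Hells (2356 and 2411 in controls against 2911 and 2760 in cKO libraries) and Suv39h1 (1908 and 1908 in controls against 2319 and 2117 in cKO libraries), and 0 fell. Imprinted genes gave 3 rises and 3 falls among 36. Zdbf2 had 4351 and 4920 in controls against 7585 and 6357 in cKO libraries (log2 0.59, SE 0.087, limma adjusted p 0.00718) and Grb10, a brake on growth factor receptors, had 20086 and 21112 in controls against 30197 and 26223 in cKO libraries (log2 0.45, SE 0.069, limma adjusted p 0.00749), while Usp29 and Peg13 fell by 0.48 and 0.28 on the log2 scale. Of the imprinted genes 0 rose when control replicate 1 was left out, 1 when control replicate 2 was, and 11 when cKO replicate 2 was. Suz12 and Suv39h1 did not pass without cKO replicate 1.

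Of 23 cholesterol synthesis genes 8 fell (34.8%) and 0 rose, the other 15 missing the threshold (median -0.16), and edgeR and DESeq2 called 4 each. Fdft1, which makes squalene, had 3523 and 3636 in controls against 2972 and 3071 in cKO libraries (log2 -0.24, SE 0.047, limma adjusted p 0.0141), Tm7sf2 had 415 and 371 in controls against 257 and 293 in cKO libraries and Fdps had 1881 and 1948 in controls against 1536 and 1661 in cKO libraries. The falls numbered 4, 8, 0 and 0 with 1 library left out. Glycolysis gave 3 rises and 3 falls among 21: Ldhb (2978 and 3013 in controls against 2500 and 2613 in cKO libraries) and Pfkm (3885 and 3808 in controls against 3199 and 3302 in cKO libraries) fell, and Aldoc (9040 and 9187 in controls against 10896 and 10412 in cKO libraries) and the lactate carrier gene Slc16a3 (50.7 and 73.5 in controls against 136 and 104 in cKO libraries) rose. Of 25 genes of the citric acid cycle and its entry 3 rose, with Suclg2 at 569.5 and 596 in controls against 811 and 737 in cKO libraries and Idh2 at 6481 and 6291 in controls against 7585 and 7258 in cKO libraries beside Ucp2, and 1 fell, Idh3a, at 2492 and 2536 in controls against 2189 and 2176 in cKO libraries. Lysosome and autophagy genes gave 5 falls and 1 rise among 30: the autophagosome proteins Gabarap, Gabarapl1 and Map1lc3b fell by 0.21, 0.30 and 0.28 on the log2 scale, and the protease gene Ctsz rose by 0.33. With either control left out 0 of these lysosomal, glycolytic and cholesterol genes passed, and without cKO replicate 1 the lysosomal falls numbered 4 and the glycolytic rises and falls 1 and 2. Fdps and Slc16a3 did not pass without cKO replicate 1. Idh3a did not pass with DESeq2.

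Housekeeping machines had fewer calls than the background. Of 81 cytosolic ribosomal protein genes 2 rose (2.47%) and 0 fell, with Rps25 at 1482 and 1448 in controls against 2219 and 2281 in cKO libraries (log2 0.62, SE 0.052, limma adjusted p 0.00270) and Rps28 at 2633 and 2753 in controls against 3170 and 3073 in cKO libraries; retrocopies of ribosomal genes are frequent, so their counts are uncertain. No mitochondrial ribosomal gene passed (0 of 78), nor any proteasome subunit (0 of 39) or spliceosome gene (0 of 32) in limma, with medians of -0.03, -0.05 and 0.03. At an unadjusted p under 0.05 there were 1, 2 and 1, and edgeR and DESeq2 called 0 in each group. Mrpl28 had 1756 and 1750 in controls against 1801 and 1810 in cKO libraries, Psmd2 had 10028 and 10220 in controls against 9609 and 9971 in cKO libraries and Sf3b1 had 22727 and 22875 in controls against 22851 and 22969 in cKO libraries. The groups overlapped for Sf3b1 and lay close together for the other genes. Of 35 complex I subunits 1 fell, Ndufb9 (log2 -0.20), and 4 had a log2 change above 0. Of 38 genes of ATP synthase, cytochrome c oxidase and the bc1 complex 1 rose, Cox6b2, a form known from testis, with 8.78 and 17.3 in controls against 63.8 and 34.3 in cKO libraries (log2 1.84, SE 0.42, limma adjusted p 0.0241). Of 59 translation factors 2 fell and 1 rose: Eef1a2, the elongation factor form of neurons and muscle, had 834 and 731 in controls against 329 and 471 in cKO libraries (log2 -0.99, SE 0.16, limma adjusted p 0.00791), Eif4a2 fell by 0.23 on the log2 scale and Eif2ak2, a kinase that senses double-stranded RNA, rose by 0.34. Aminoacyl tRNA synthetases gave 2 rises and 1 fall among 35, and the hnRNP family 1 rise among 20, Hnrnpf (log2 0.24). Rps28, Ndufb9, Cox6b2, Eif4a2 and Hnrnpf did not pass without cKO replicate 1, and Eif4a2 and Hnrnpf did not pass with edgeR. Ndufb9, Eif2ak2 and Hnrnpf did not pass with DESeq2. DESeq2 gave no adjusted p for Cox6b2.

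Unfolded protein, Atf4, heat shock and hypoxia genes had few calls, and immediate early, interferon and germline genes had more. In limma 0 of 18 genes of the unfolded protein response passed (median 0.00), with 2 at an unadjusted p under 0.05, 1 called by edgeR and 0 by DESeq2. The chaperones Canx (18307 and 18583 in controls against 18600 and 19113 in cKO libraries) and Calr (15236 and 14695 in controls against 14650 and 15228 in cKO libraries) were close between the genotypes (log2 0.03 and -0.00, limma adjusted p 0.674 and 0.978). Of 14 Atf4 targets 1 fell, Asns (976 and 1227 in controls against 859.7 and 784 in cKO libraries), of 13 heat shock genes 1 rose, the cochaperone gene Bag3 (81.9 and 62.7 in controls against 152 and 133 in cKO libraries), and of 21 hypoxia genes 1 fell, Ndrg1 (964 and 987 in controls against 534 and 711 in cKO libraries, log2 -0.66, SE 0.12, limma adjusted p 0.0120). Immediate early genes gave 3 rises and 2 falls among 16 (18.8% and 12.5%), above the background shares of 6.16% and 8.29%. Nr4a2 had 538 and 482 in controls against 902 and 756 in cKO libraries (log2 0.70, SE 0.10, limma adjusted p 0.00706). Its relative Nr4a3 had 3619 and 3930 in controls against 2557 and 2895 in cKO libraries (log2 -0.47, SE 0.069, limma adjusted p 0.00702). Fosl2 had 2158 and 2050 in controls against 1181 and 1597 in cKO libraries. Btg2, which progenitors express before a neuron-producing division, had 3523 and 3523 in controls against 4093 and 3993 in cKO libraries. Interferon response genes gave 2 rises and 1 fall among 13 (15.4% and 7.69%), with only the share of rises above its background. Ifit2 had 369.6 and 376 in controls against 536 and 529 in cKO libraries. B2m had 413 and 414 in controls against 564 and 519 in cKO libraries, and Stat2 had 766 and 787 in controls against 568 and 578 in cKO libraries. Germline genes are known to be kept silent in other tissues by DNA methylation and repressor complexes. Of 35 listed, 21 were in the table and 15 were tested, of which 4 rose (26.7%) and 2 fell (13.3%). Tex15 had 184 and 209.7 in controls against 373 and 283 in cKO libraries (log2 0.72, SE 0.15, limma adjusted p 0.0185) and Tdrd9 had 23.4 and 17.3 in controls against 51.4 and 41.1 in cKO libraries. Ddx25, an RNA helicase, had 1132 and 1055 in controls against 855 and 913 in cKO libraries. Of the germline genes edgeR called 3 and DESeq2 2, against 6 in limma. In limma 2 rose and 1 fell without cKO replicate 1, and 1 rose and 0 fell without control replicate 1 and likewise without control replicate 2. Of 38 Hox genes 2 were in the table and 0 reached the minimum. Btg2, B2m, Tdrd9 and Ddx25 did not pass without cKO replicate 1, and Asns and Ddx25 did not pass with edgeR. Fosl2 and Ddx25 did not pass with DESeq2. DESeq2 gave no adjusted p for Tdrd9.

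Non-coding transcripts had few calls. Of 535 genes annotated by RefSeq as long non-coding RNA 16 rose and 14 fell, against 865 rises and 1163 falls among 13504 protein-coding genes. Calls were rarer at low counts (1.47% rose and 0.768% fell in the lowest 10% by mean), and the part of expression level here was not tested. Mir124-2hg, the host of a neuronal microRNA, had 246 and 270.3 in controls against 181 and 174 in cKO libraries (log2 -0.53, SE 0.12, limma adjusted p 0.0224). Mir9-3hg, the host of a microRNA of progenitors and neurons, had 2524 and 2482 in controls against 3187 and 2919 in cKO libraries (log2 0.28, SE 0.056, limma adjusted p 0.0146). Among RIKEN clones 16 of 571 rose and 24 fell (24 calls in all with DESeq2): 9330159F19Rik had 5814 and 6085 in controls against 4423 and 4698 in cKO libraries and A730017C20Rik had 426 and 449.7 in controls against 694 and 631 in cKO libraries. Of 195 predicted genes with Gm numbers 3 rose and 3 fell, and of 16 small nucleolar RNA hosts 1 rose, Snhg18, with 98.5 and 102 in controls against 156 and 139 in cKO libraries. Snhg18 did not pass without cKO replicate 1. Mir124-2hg and Snhg18 did not pass with DESeq2.

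Falls concentrated in long genes. In the longest 10% of genes by RefSeq span (141128 to 2390387 bp, 1428 genes) 21.99% fell and 7.49% rose, with a median log2 change of -0.07. In the shortest 10% (up to 3954 bp) 4.62% fell and 4.97% rose. The share that fell was 10.4% in the next longest bin and 8.83% in the bin after it, so most of the increase lay in the last step. Calls also followed expression level: 0.768% of genes fell and 1.47% rose in the lowest 10% (means up to 35.2 normalized counts), and 14.0% fell and 6.91% rose in the highest. By chromosome, the share that fell ran from 6.93% on chromosome 7 to 11.6% on chromosome 6, and the share that rose from 3.48% on chromosome 18 to 8.68% on chromosome 13, among chromosomes with more than 4 tested genes. Chromosome 6 carries Emx1 and chromosome 19 carries Rcor2; on the latter 6.13% rose and 7.57% fell.

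Genes with an Rcor2 peak were compared with the rest using the authors' deposited peak list, which can name several genes, or none, for a peak. A peak was counted for each gene that it names. The fold enrichment in that list compares the Rcor2 antibody with IgG, and no peak was left out here for its height in input. Of 1509 tested genes with a promoter peak 10.8% rose and 5.70% fell, against 5.61% and 8.60% of the 12815 without one. A promoter peak was named for 18.5% of the rises, 7.24% of the falls and 10.5% of all tested genes. With a gene body peak (1265 genes) 11.3% rose and 15.3% fell; these genes had a median span of 120391 bp against 21361 bp for the rest, and the part of span in that share was not tested. Distal peaks were named for 628 genes, of which 13.1% rose and 8.92% fell. Genes with any peak were also more abundant, with a median mean count of 1316 against 727. Of the 20 largest rises 6 had a peak of any class, and of the 20 largest falls 3 had one.

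**Figure D5:**
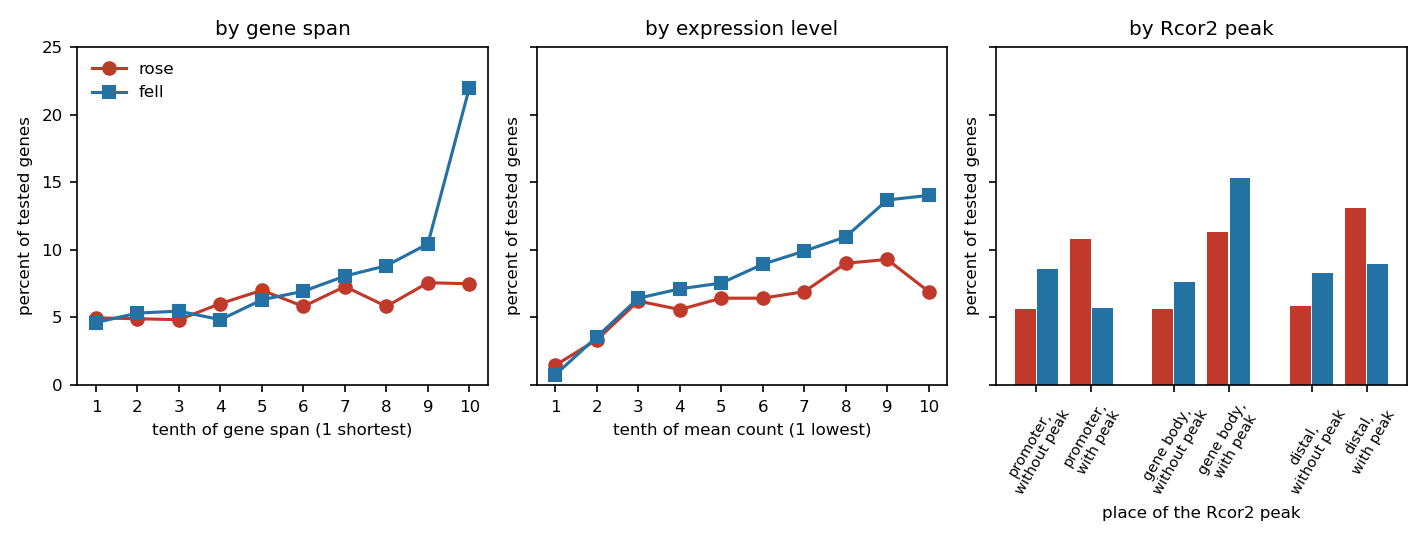
Percent of tested genes that rose (red) or fell (blue) in the cKO, by bins of 10% of genes in span and in mean normalized count, and with or without an Rcor2 peak at the promoter, in the gene body or distal. The share that fell reaches 21.99% in the bin of longest genes, and genes with a promoter peak have the larger share rising (10.8%) and the smaller share falling (5.70%).

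Promoters of 4 called genes with a promoter peak are printed, each covered by its peak only in part. Among genes with such a peak, Gas1 and Fstl1 had the smallest adjusted p among rises, and Rorb and Slitrk1 among falls. Each is the 250 bases upstream of the annotated start (RefSeq, GRCm38.p6, the assembly of mm10), 5′ to 3′ on the gene's strand. Capitals mark the letters GGACAG or CAGCACC, parts of the RE1 element that Rest binds, and GGGCGG, the GC box, found on either strand.
Gas1 (chr13:60177536-60177785, minus strand): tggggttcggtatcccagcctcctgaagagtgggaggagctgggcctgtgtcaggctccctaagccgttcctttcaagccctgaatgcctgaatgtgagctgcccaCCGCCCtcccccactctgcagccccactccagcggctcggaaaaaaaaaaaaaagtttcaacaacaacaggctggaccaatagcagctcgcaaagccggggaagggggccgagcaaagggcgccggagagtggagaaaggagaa
Fstl1 (chr16:37776805-37777054, plus strand): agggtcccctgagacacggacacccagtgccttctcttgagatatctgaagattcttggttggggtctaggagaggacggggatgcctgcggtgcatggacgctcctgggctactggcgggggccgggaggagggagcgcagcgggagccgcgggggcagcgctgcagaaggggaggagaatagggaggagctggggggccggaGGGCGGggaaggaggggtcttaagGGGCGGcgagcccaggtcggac
Rorb (chr19:19111197-19111446, minus strand): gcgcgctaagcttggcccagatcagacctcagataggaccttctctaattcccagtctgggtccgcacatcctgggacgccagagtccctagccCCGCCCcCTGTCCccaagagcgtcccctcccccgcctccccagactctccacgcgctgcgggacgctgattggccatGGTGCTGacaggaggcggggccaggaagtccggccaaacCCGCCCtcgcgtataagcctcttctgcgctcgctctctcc
Slitrk1 (chr14:108914240-108914489, minus strand): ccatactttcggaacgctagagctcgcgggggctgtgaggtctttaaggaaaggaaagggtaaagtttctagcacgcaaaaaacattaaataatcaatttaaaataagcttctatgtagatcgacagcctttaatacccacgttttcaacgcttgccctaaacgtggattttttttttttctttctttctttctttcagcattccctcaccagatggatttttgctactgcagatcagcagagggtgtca

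Gas1, a membrane protein that assists Hedgehog reception, had 3533 and 3520 in controls against 4629 and 4572 in cKO libraries (log2 0.38, SE 0.043, limma adjusted p 0.00429). Rorb, a nuclear receptor of cortical layer neurons, had 632 and 595 in controls against 256 and 317 in cKO libraries (log2 -1.10, SE 0.12, limma adjusted p 0.00421). Slitrk1, a synaptic adhesion protein, had 1246 and 1219 in controls against 870.0 and 913 in cKO libraries (log2 -0.47, SE 0.062, limma adjusted p 0.00578). The Gas1 and Fstl1 promoters held GC boxes and neither RE1 part, the Rorb promoter held all 3 motifs, and the Slitrk1 promoter held none of them. The peak ran from 60177732 to 60178013 at Gas1, from 37776643 to 37776824 at Fstl1 and from 19111361 to 19111544 at Rorb. In Gas1, Fstl1 and Rorb the marked letters lay outside the peak. The authors' peak heights at Rorb were 13 and 12 with the Rcor2 antibody, 3 and 4 with IgG and 24 and 15 in input. At Gas1 the heights were 7 and 20, 4 and 4, and 16 and 17, and at Fstl1 12 and 16, 3 and 3, and 19 and 17. At Slitrk1 they were 8 and 19 with the antibody, 4 and 0 with IgG and 13 and 5 in input. The heights show no sign of depth scaling, so antibody, IgG and input heights are not comparable as levels. Across promoters, GGACAG was in 18.6% of the 668 rises with a sequence, 19.2% of the 870 falls and 19.5% of the 10915 tested genes with one. CAGCACC was in 5.84%, 5.75% and 5.92%. GGGCGG was in 63.6%, 61.7% and 60.02%, against 32.9% of all 27025 promoters of the table, which includes genes not tested here. Among genes that also had a promoter peak, GGACAG was in 20.0% of the 125 rises and 16.7% of the 66 falls with a sequence. CAGCACC was in 6.40% and 7.58% of them, and GGGCGG in 68.0% and 72.7%. A match of these letters is not evidence of binding.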

How the data were processed

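Cortical midline was dissected from mouse embryos for RNA sequencing. The sample protocol and the series design name different TruSeq kits, per the labels, so how RNA was selected is not known. HISAT2 2.1.0, Trim Galore and mm10 appear per the submitters' processing notes, without a role. The gene counter, annotation, strand use and normalization were not given in the sources used here, so antisense and overlapping genes cannot be told apart.

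Per the file headers, the deposited gene table gives a normalized count (a signal) for each library. It also gives the authors' log2 fold changes with standard errors, and the authors' p-values and adjusted p-values. Every value was a whole multiple of 1 step per library within 0.001 (100% whole), so whole reads could be recovered. The deposited peak table gives the authors' fold enrichment, a ratio, and coverage heights (signal) per chromatin library; gene names and location classes of peaks are the authors' own.

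limma-trend (limma 3.58.1 in R 4.3.3, two-sided, no replicate block) was run on log2(normalized count + 1), a scale that understates changes of low genes, for 14324 genes; 2014 genes below a mean of 10 stayed out. Adjustment was by Benjamini-Hochberg over every tested gene, with 0.05 as the threshold for a call. The fit had 2 residual and 6.21 prior degrees of freedom. At 2 against 2, an exact permutation test of 1 gene cannot go below p = 0.333. Nothing says whether libraries came from separate litters, so p-values measure only the spread between these libraries. Leaving out a library leaves 1 in its group, which is assumed to vary like the other group.

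Alternatives were pseudocounts of 0.5 and 8, other expression minimums (none, 50), TMM, DESeq2 size factors, quantile normalization, edgeR 4.0.16 and DESeq2 1.42.0 on recovered reads, the authors' deposited test, a replicate block, and leaving out each library. The fit was tested on simulated counts. Gene spans and promoters came from RefSeq (GRCm38.p6), which placed 99.6% of tested genes. Spreadsheet date names replaced 23 symbols.

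Named genes were Rcor2 and Emx1, the 20 largest rises and falls (mean of 50 or more, without predicted, date, Y-linked and Xist or Tsix names), the 10 most abundant calls, the 10 with the smallest adjusted p, and up to 4 calls per list or name family, or its 2 most abundant members where none passed. Genes outside this rule, such as other list members, were named after their values were seen. Members, 44 lists and 34 families were chosen with earlier results of these data known; list counts are descriptions without a set test. Plots used matplotlib 3.10.9 in Python 3.11.15. A few members of the lists are not reported here by name.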

Additional observations from a re-analysis of the deposited data

How the results depend on the processing

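With all 4 libraries kept, the number of called genes stayed within 1.5 times of 2070 under each alternative run; it moved when a library was left out. Leaving out 1 library gave 140 to 3453 calls, 58 to 1532 higher and 82 to 1921 lower. edgeR called 1742 genes (1654 shared with limma), DESeq2 called 1577 (1496 shared), and the authors' deposited test called 1587 (1504 shared). limma, edgeR and the authors' deposited test shared 1338 calls, 619 higher and 719 lower. The log2 change of Rcor2 passed in DESeq2 (-0.18, adjusted p 0.0478) and in the authors' deposited table (-0.19, adjusted p 0.0444). It ranged from -0.26 to -0.14 with 1 library left out and passed without cKO replicate 2 (-0.25, limma adjusted p 0.0096); the cause was not tested. Replicate numbers recur in both genotypes, but 2 pairs without a label on litter were not taken as pairs. Their deviations correlated at 0.24 over 14324 genes and at -0.043 without X and Y genes (13796 genes). A replicate block gave 2076 calls (895 higher, 1181 lower), 1905 of them shared with the fit without the block. Of 254 named calls, 20 were lost with edgeR, 24 with DESeq2 (5 more had no adjusted p) and 22 in the authors' deposited test (6 more had none). Quantile normalization lost 19, TMM 4, the replicate block 5, leaving out cKO replicate 1 lost 43, and leaving out cKO replicate 2 lost 2; 0 of the 254 turned sign in these fits. The higher share of calls was 42.6% as deposited, 47.8% with TMM and 48.9% with quantile normalization. Few calls were made at low counts: 0.768% of genes fell and 1.47% rose in the lowest 10% by mean.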

Other observations

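Rprl2, Rprl3, Ppia and Rec8 had large fitted changes with 1 library far from the rest, and these 4 did not pass; they were chosen after their values were seen. Rprl2 and Rprl3, copies of the RNA gene of ribonuclease P, had 1860, 1822, 5.14 and 1656 normalized counts and 643, 719, 12.3 and 807 in control replicates 1 and 2 and cKO replicates 1 and 2, so both were nearly absent from cKO replicate 1 alone. Ppia, the cyclophilin A gene used as a reference in many assays, had 40.0, 1702, 44.2 and 35.2, high in control replicate 2 alone; it has many processed copies in the genome, which can take its reads. Rec8, a meiotic cohesin subunit, had 478, 74.6, 707 and 863, low in control replicate 2, with a log2 change of 2.04 and a limma adjusted p of 0.0784. Among called genes that changed at least 2-fold, Flnc, an actin crosslinker known from muscle, was the most abundant, with 1730 and 1664 in controls against 4620 and 3325 in cKO libraries (log2 1.21, limma adjusted p 0.00421).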
